A study of Homo sapiens with 6 samples.

Results

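The BCL2 family controls permeability of the mitochondrial outer membrane, and 10 of its genes were followed by RNA-seq in the DU-145/tet-XISTshRNA line. The 10 genes were taken from a fixed list of symbols, which was chosen with earlier results of these data known. All 10 were among the 25528 symbols of the deposited table. They comprise the guardians MCL1, BCL2L1, BCL2L2 and BCL2, the effectors BAX and BAK1, and the BH3-only genes BID, BIK, BCL2L11 and PMAIP1. DU-145 is an established line of castration-resistant prostate cancer. The cells carried a tetracycline-inducible vector for an shRNA against the XIST lncRNA and were treated for 7 days with vehicle (0.1% DMSO, 3 samples) or with 500 ng/ml doxycycline (DOX, 3 samples). Both groups carried the same vector, and the labels describe samples cultured in triplicate. The study's methods say in general terms that experiments rested on independent biological replicates, without saying how these RNA-seq cultures were kept apart, and p-values measure the spread between these samples. DOX-treated cells with a control shRNA were not analysed here, so an effect of DOX itself and an effect of XIST silencing cannot be told apart. XIST was listed at 0 in 6 of 6 samples and could not serve as a check of silencing. EIF4A1, a gene that every cell uses, was listed at 0 in the same 6 samples.

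Guardians bind and hold back the effectors, which otherwise form pores through which cytochrome c leaves the mitochondria and caspases become active. BH3-only proteins occupy the groove of the guardians or engage the effectors directly, and they differ in which partners they bind. NOXA, the product of PMAIP1, binds mainly MCL1, whereas BIM, the product of BCL2L11, binds every guardian. Transcript and protein levels need not move together in this family, since the MCL1 protein is turned over rapidly by the proteasome.

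DU-145 cells are known to lack BAX protein. The coding sequence of BAX holds a run of G that is a known place of frameshifts in tumours deficient in mismatch repair. It is shown because the RNA level below counts BAX transcripts whether or not their reading frame is intact. In GRCh38 with GENCODE 44 the run lies on the plus strand at chr19:48955714-48955721, in exon 3, which contributes 147 coding bases. The reference window chr19:48955687-48955751 reads as follows, with the 8 G in capitals.
BAX exon 3: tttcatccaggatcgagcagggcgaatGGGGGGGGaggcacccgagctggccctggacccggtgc
The deposited values hold no bases read from these cells, so the sequence of the run in DU-145 was not examined here.

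The levels are given as scaled TPM, the deposited TPM (a level per transcript length that sums to 1000000 in each sample) divided by the size factor of its sample. Size factors ran from 0.694 (DOX replicate 1) to 1.41 (vehicle replicate 3), and small RNAs took 67.5% to 76.0% of the TPM with vehicle and 76.0% to 82.6% with DOX. Reads recovered from the values came to 5456467 in vehicle replicate 3, 64580514 in DOX replicate 1 and between 16702160 and 20340323 in the other samples, so vehicle replicate 3 was the least precise. The epithelial markers KRT8, KRT18, KRT19, EPCAM and CDH1 were all above 1 scaled TPM, and their sum was 193 to 254 with vehicle and 278 to 371 with DOX, a difference whose part in the results was not tested. The keratins carried this sum, with KRT8 and KRT19 higher in all DOX samples than in any vehicle sample and KRT18 overlapping, whereas EPCAM was at 15.2 to 17.5 with vehicle and 12.3 to 13.7 with DOX and CDH1 at 8.81 to 9.91 and 5.08 to 9.83. None of 6 blood, endothelial and stromal markers reached 1.

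MCL1 was the most abundant of the 10 transcripts and BCL2 the least. Mean scaled TPM with vehicle was 145 for MCL1, 32.5 for BCL2L1, 12.2 for BID, 9.85 for PMAIP1, 8.24 for BCL2L11, 7.05 for BAX, 2.46 for BIK, 2.33 for BAK1, 2.21 for BCL2L2 and 0.0263 for BCL2. The ranges over all 6 samples did not overlap between MCL1 and BCL2L1, between BCL2L1 and BID, between BAX and BIK, or between BCL2L2 and BCL2. The other neighbours in this order overlapped, so that the order of BIK, BAK1 and BCL2L2, for example, was within the spread between samples. The level of each gene sums its isoforms, so the long and short forms of MCL1 or of BCL2L1, which act in opposite ways, were not separated. The same holds for the spliced forms of BIM. MCL1 has the lncRNA ADAMTSL4-AS1 and the RNA genes RN7SL473P and RN7SL600P on its own strand, and BID has the microRNA gene MIR3198-1. MCL1, BAK1, BCL2L1, BCL2L2 and BCL2L11 have genes on the opposite strand. Reads of these overlapping genes could be shared, and the strand setting of the counting is not known here.

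**Figure D1:**
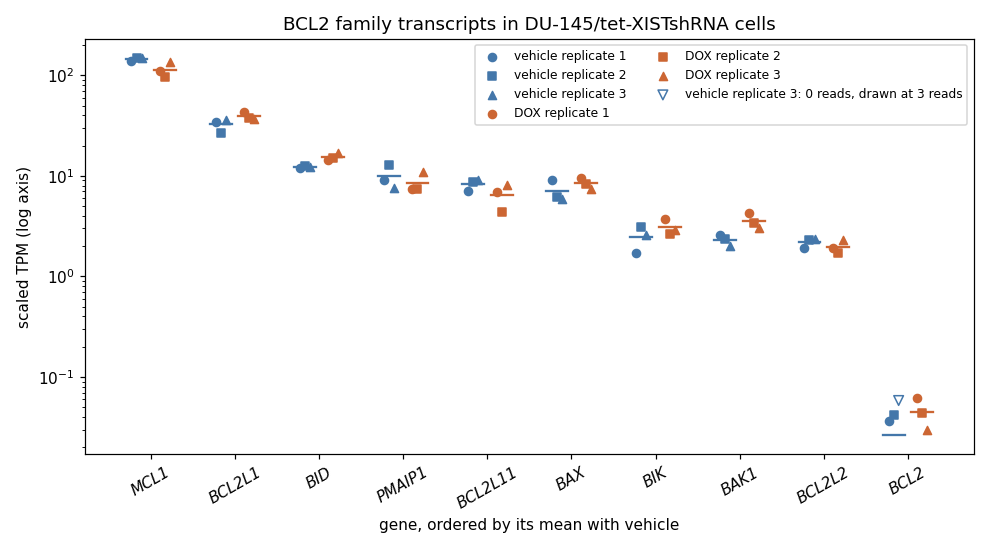
Scaled TPM of the 10 genes (log axis) in each of 3 vehicle and 3 DOX samples, ordered by the mean with vehicle; short lines are group means. MCL1 stands above all others in each sample, BCL2 lies far below the rest, and the open triangle marks vehicle replicate 3, which had 0 BCL2 reads and is drawn at the level of 3 reads.

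To ask whether DOX treatment changed these transcripts, the groups were compared by limma on log2(scaled TPM + 1), with p-values adjusted over all 11630 genes with a mean of at least 1 scaled TPM. Calls needed an adjusted p under 0.05 together with a fold change over 1.5. In limma the fold was taken on this log2(scaled TPM + 1) scale, which understates changes of low genes. Of the 10 members, 9 reached the minimum and BCL2 did not. None of the 9 was called by limma (0 of 9), and nor was any other gene, the share called being 0% in each direction. Voom on the recovered reads called 1 gene, which was no member. The paper, which tested counts with DESeq2, reported genes lower and higher in XIST-silenced DU-145 cells. BAK1 and BAD are among the genes it lists as upregulated by silencing of MUC1-C and of XIST. At an unadjusted p under 0.05, 1 member was lower with DOX (MCL1) against 7.74% of all genes tested, and 2 were higher (BAK1 and BID) against 8.10%, that is 3 of 9 members in either direction against 15.8% of all genes. The groups did not overlap for 4 of 9 members, against 20.0% of all genes; DOX was the lower group for 1 of them (9.13% of all genes) and the higher group for 3 (10.9% of all genes). The median log2 fold change was 0.25 over the 9 members and 0.018 over all genes. After correction for GC content and length these medians were -0.031 and 0.0073. An unadjusted p under 0.05 in limma was then reached by 1 member lower and 0 higher, against 741 and 755 of 11180 genes. In bulk samples a change in the share of cells with a transcript and a change of its level per cell cannot be told apart.

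Among the guardians, MCL1 (chr1:150560895-150579738, minus strand) was at 138, 149 and 148 scaled TPM in vehicle replicates 1, 2 and 3 and at 110, 96.2 and 135 in DOX replicates 1, 2 and 3. Each DOX sample was below each vehicle sample, with replicate 3 of DOX closest to vehicle. The log2 fold change was -0.36 ± 0.14 (SE, n = 3 per group; 95% interval -0.68 to -0.038), with an adjusted p of 0.288 by limma. With the replicate number as a block, voom gave -0.36 and an adjusted p of 0.0448, but the fold stayed under 1.5. On the deposited TPM without scaling the median of all genes moved to -0.35 and MCL1 was at -0.80. No member was called there (0 of 9 by limma, with 4 lower at an unadjusted p under 0.05), against 2.98% of all genes lower and 0.0257% higher. Adding the block on that scale gave MCL1 an adjusted p of 0.00113 and a call, as for 19.0% of all genes in that direction and 0.129% in the other. Correction for GC content and length left the log2 fold change at -0.33 with an adjusted p of 0.326.

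BCL2L1 (chr20:31664452-31723989, minus strand), which encodes BCL-XL, was at 34.6, 26.9 and 36.025 scaled TPM in the vehicle samples and at 43.0, 37.7 and 36.4 in the DOX samples. The DOX samples were all above the vehicle samples, but vehicle replicate 3 and DOX replicate 3 were nearly level. The log2 fold change was 0.26 ± 0.14 (adjusted p = 0.370 by limma) and was -0.17 on the deposited TPM and 0.043 after GC and length correction. Without vehicle replicate 2, the lowest sample, it was 0.14.

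BCL2L2 (chr14:23298790-23311751, plus strand), which encodes BCL-W, was at 1.93, 2.32 and 2.38 scaled TPM with vehicle and at 1.89, 1.69 and 2.31 with DOX. The groups overlapped, and the log2 fold change was -0.12 ± 0.14 (adjusted p = 0.665 by limma), or -0.20 to -0.047 when 1 sample was left out, nearest to 0 without DOX replicate 2. BCL2L2 shares sequence on its strand with the readthrough gene BCL2L2-PABPN1, so the split of reads between them is uncertain.

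BCL2 (chr18:63123346-63320128, minus strand), the founding guardian, was close to the limit of detection in this line. Its recovered reads numbered 6, 8 and 0 in the vehicle samples and 40, 8 and 5 in the DOX samples. These correspond to 0.0367, 0.0421 and 0 scaled TPM with vehicle and to 0.0616, 0.0433 and 0.0294 with DOX. The 0 reads of vehicle replicate 3 allow up to 3 reads, or 0.0583 scaled TPM, by counting error alone, which is above 5 of the 6 values. A difference between the groups was therefore not detectable at this depth. BCL2 was left out of the main comparison by the minimum of 1 scaled TPM, and without that minimum limma called 0 of 10 members.

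Of the effectors, BAX (chr19:48954815-48961798, plus strand) was at 9.17, 6.16 and 5.82 scaled TPM with vehicle and at 9.60, 8.25 and 7.48 with DOX. The groups overlapped because vehicle replicate 1 was above DOX replicates 2 and 3. The log2 fold change was 0.25 ± 0.17 (95% interval -0.14 to 0.63; adjusted p = 0.463 by limma), and it was -0.15 on the deposited TPM and -0.031 after GC and length correction. It ranged from 0.14 without vehicle replicate 3 to 0.43 without vehicle replicate 1. BAX transcripts were thus measured in all 6 samples, at 48 to 998 reads.

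BAK1 (chr6:33572547-33580293, minus strand), the effector that can act where BAX is missing, was at 2.61, 2.37 and 2.00 scaled TPM with vehicle. With DOX it was at 4.24, 3.41 and 3.03, so that each DOX sample was above each vehicle sample. The log2 fold change of 0.45 ± 0.15 (95% interval 0.13 to 0.78) was the highest among the 9 members, with an adjusted p of 0.281 by limma and of 0.0631 with the replicate block. Voom on the recovered reads with the block gave 0.61 ± 0.18 and an adjusted p of 0.0447, which made it the 1 member called in that fit, against 1.48% of all genes called higher and 2.14% called lower. Its difference was 0.12 on the log2 scale in the deposited TPM and 0.19 (adjusted p = 0.429) after correction for GC content and length. BAK1 rested on 31 reads in vehicle replicate 3.

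Among the BH3-only genes, BID (chr22:17734138-17774770, minus strand), which caspase 8 cleaves to carry death receptor signals to mitochondria, was the most even with vehicle, at 12.0, 12.5 and 12.2 scaled TPM. With DOX it was at 14.2, 14.9 and 16.7, all above vehicle. This was a log2 fold change of 0.30 ± 0.12 (adjusted p = 0.287 by limma, 0.0987 with the block). It was -0.12 on the deposited TPM and 0.15 after GC and length correction (adjusted p = 0.552 by limma).

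BCL2L11 (chr2:111119378-111168444, plus strand) was at 7.03, 8.68 and 9.02 scaled TPM with vehicle and at 6.83, 4.37 and 8.09 with DOX. DOX replicate 2 was lowest and DOX replicate 3 lay within the vehicle range. BCL2L11 had a log2 difference of -0.34 ± 0.19 (adjusted p = 0.383 by limma) and -0.12 without DOX replicate 2. On the deposited TPM with the block it was -0.74, with an adjusted p of 0.00222 and a call. In that fit 19.0% of all genes were called lower and 0.129% higher.

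PMAIP1 (chr18:59899996-59904305, plus strand) was at 9.14, 12.9 and 7.55 scaled TPM with vehicle and at 7.38, 7.38 and 10.9 with DOX, and the groups overlapped. Its log2 fold change was -0.18 ± 0.20 (adjusted p = 0.659 by limma) and turned to 0.019 without vehicle replicate 2.

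BIK (chr22:43110750-43129712, plus strand), which acts at the endoplasmic reticulum as well as on guardians, was at 1.70, 3.08 and 2.60 scaled TPM with vehicle and at 3.68, 2.64 and 2.92 with DOX. The groups overlapped, on 14 to 250 reads a sample. Its log2 fold change was 0.25 ± 0.18 (adjusted p = 0.466 by limma) and -0.082 on the deposited TPM, 0.015 after GC and length correction and 0.083 without vehicle replicate 1. Across the 9 tested members the 95% intervals reached from -0.77 to 0.78. A change of 2-fold in either direction thus lay outside each interval on the log2(scaled TPM + 1) scale, which understates changes of low genes. Voom without the block gave larger standard errors for BAK1 (0.61 ± 0.23) and BIK (0.43 ± 0.32), so this was not shown for the other fits.

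**Figure D2:**
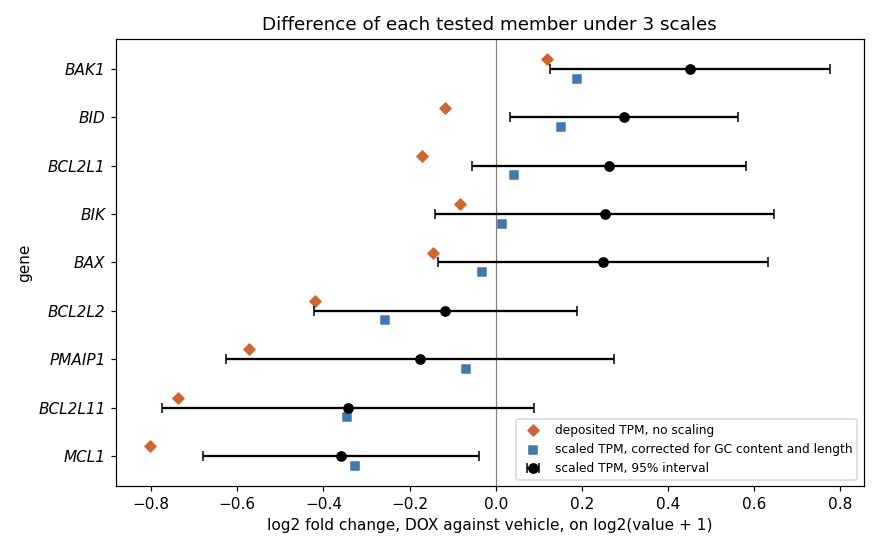
Log2 fold change of the 9 tested members, DOX against vehicle (n = 3 per group), on log2(value + 1). Black points with 95% intervals are scaled TPM; diamonds are deposited TPM and squares are scaled TPM corrected for GC content and length, which lie below 0 for BAX at -0.15 and -0.031. BAK1 is highest at 0.45 and MCL1 lowest at -0.36, and the diamonds of BID, BCL2L1, BIK and BAX lie on the other side of 0 from their black points.

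The log2 fold change of all genes was higher where the GC content of their exons was higher, and the members are placed on this scale in the plot of fold change against GC content. All genes with an annotation were divided by GC content into 5 bins of 2236 genes, and the median log2 fold change was -0.23, -0.098, 0.017, 0.14 and 0.25 from the lowest bin to the highest. BAX, BAK1 and BCL2L1, with 60.7%, 58.8% and 57.8% GC, fell in the highest bin, whose quartiles were 0.13 and 0.36. BAX and BCL2L1 lay within these quartiles and BAK1 above them. BCL2L2, BID and BIK were in the next bin below, whose quartiles were 0.026 and 0.25, where BID lay above, BIK at the upper edge and BCL2L2 below. MCL1 and BCL2L11, with 45.5% and 47.4% GC, were in the middle bin and lay below its quartiles of -0.090 and 0.13. PMAIP1, with 40.03% GC, lay within the quartiles of the lowest bin.

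**Figure D3:**
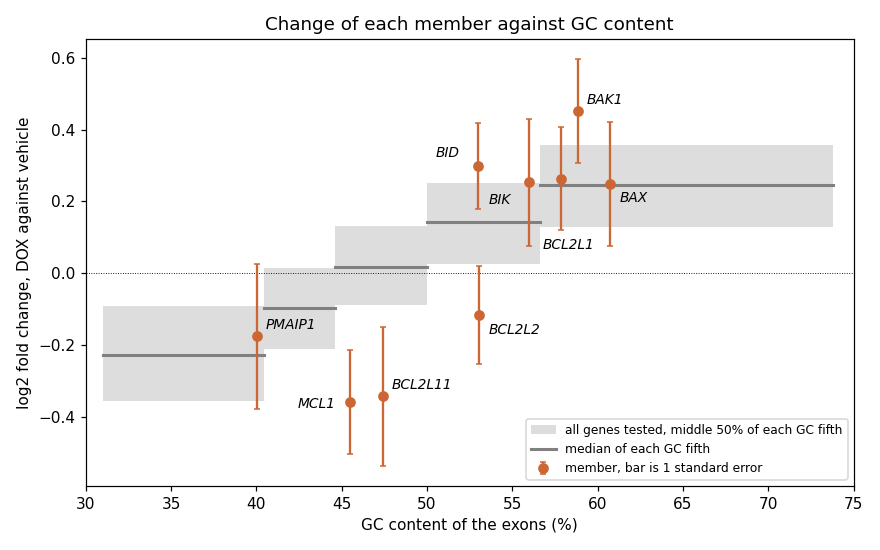
Log2 fold change of each tested member (points, bars are 1 SE) against the GC content of its exons (%). Grey bands and lines give the quartiles and the median of all genes in each of 5 bins of GC content, from -0.23 to 0.25. BAK1 and BID lie above their bands, BIK at the edge of its band, and MCL1, BCL2L11 and BCL2L2 below; the plot uses scaled TPM, and BID was at -0.12 on the deposited TPM.

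Ratios of 2 transcripts within a sample do not depend on its scaling, and 3 such ratios were compared by two-sided exact permutation tests, which cannot give a p below 0.1 with 3 samples against 3. MCL1 and BCL2L1 are the main guardians by level here. The ratio of MCL1 to BCL2L1 was 3.99, 5.55 and 4.10 with vehicle and 2.56, 2.56 and 3.72 with DOX. It was lower in each DOX sample than in any vehicle sample. How often ratios of other gene pairs separate the groups was not examined, while 20.0% of single genes did so. The mean log2 ratio differed by -0.63 (exact permutation p = 0.1, the smallest possible; 0.15 adjusted over the 3 ratios). A ratio still carries the GC content of its genes, and after correction for GC content and length the log2 fold changes of MCL1 and BCL2L1, -0.33 and 0.043, were closer together than the -0.36 and 0.26 before it.

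MCL1 accounted for 79.1% to 83.6% of the summed scaled TPM of the guardians with vehicle and for 71.0% to 77.8% with DOX. BCL2L1 accounted for 15.1% to 19.8% and for 20.9% to 27.8%. The guardians together made up 79.6% to 82.6% of the 10 genes with vehicle and 76.8% to 78.0% with DOX, and the effectors 3.47% to 5.44% and 4.71% to 6.88%. These shares are descriptions of transcript levels and were not tested.

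The ratio of BAX to BAK1 was 3.52, 2.60 and 2.90 with vehicle and 2.27, 2.42 and 2.47 with DOX, so BAX was the more abundant effector transcript in each sample. The DOX samples were all below the vehicle samples, with a mean log2 difference of -0.32 (exact permutation p = 0.1, adjusted 0.15), and -0.20 without vehicle replicate 1. The log2 fold changes of BAX and BAK1 were -0.031 and 0.19 after GC and length correction, against 0.25 and 0.45 before it. They were no closer together after the correction than before. These fold changes use log2(scaled TPM + 1) and the ratio does not, so their difference need not equal that of the log2 ratio. The ratio of PMAIP1 to MCL1, a BH3-only gene and its guardian, was 0.0661, 0.0862 and 0.0511 with vehicle and 0.0669, 0.0767 and 0.0804 with DOX. These groups overlapped, the mean log2 difference being 0.17 (exact permutation p = 0.6), and it was -0.020 without vehicle replicate 3.

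**Figure D4:**
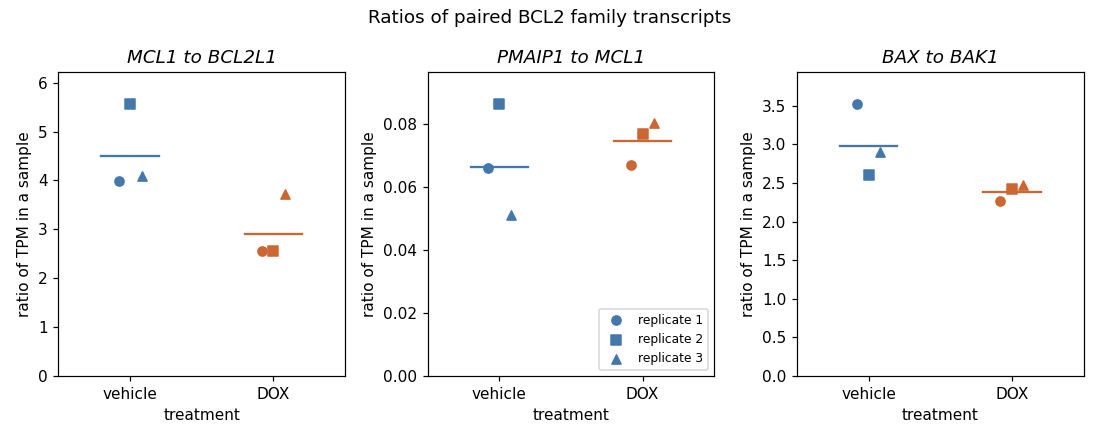
Ratio of TPM of 2 genes in each of 3 vehicle and 3 DOX samples, with lines at the geometric means and axes from 0. MCL1 to BCL2L1 and BAX to BAK1 are lower in all DOX samples than in all vehicle samples, whereas PMAIP1 to MCL1 overlaps. How often ratios of other gene pairs separate the groups was not examined.

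The genes around these members were examined as 6 further lists with 47 genes, of which 40 were tested. None was called (0 of 40 by limma), while an unadjusted p under 0.05 was reached by 2 genes lower and 4 higher with DOX, and voom called none without the block. These 6 of 40 stand beside 15.8% of all genes, a like share, and the counts per list below are descriptions. The median log2 fold change over the 40 was 0.0079.

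Other BCL2 family genes included 8 that were tested out of 13, and an unadjusted p under 0.05 was reached by 0 lower and 2 higher, with a median of 0.19. BCL2L12 was at 3.89, 2.54 and 3.05 scaled TPM with vehicle and at 5.51, 4.21 and 4.24 with DOX, a log2 fold change of 0.45 ± 0.16 (adjusted p = 0.282 by limma) that was 0.092 on the deposited TPM and 0.20 after GC and length correction. BNIP3L, a mitophagy receptor and the most abundant of this list, was at 89.8 to 114 with vehicle and 76.0 to 103 with DOX. BAD, whose product binds BCL-XL and which was picked after its values were seen, differed by 0.51 ± 0.22 on the log2 scale (adjusted p = 0.308 by limma). BAD was called only by voom with the block (adjusted p = 0.0450), a fit that called 1.48% of all genes higher and 2.14% lower. Its difference was 0.14 on the deposited TPM and 0.18 after GC and length correction.

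Downstream of the pore, none of the 9 apoptosome and caspase genes passed an unadjusted p of 0.05 in limma (0 of 9), and their median was 0.0093. APAF1, the scaffold of the apoptosome, was at 3.61 to 4.61 scaled TPM with vehicle and 2.99 to 3.73 with DOX. Its log2 fold change was -0.26 ± 0.14 (adjusted p = 0.357 by limma), and -0.11 after GC and length correction. CYCS, which encodes cytochrome c, was at 29.95 to 40.2 and 26.9 to 43.2. Of the inhibitor of apoptosis genes and their antagonists, 7 of 9 were tested, 1 gene in each direction had an unadjusted p under 0.05, and the median was -0.093. BIRC5, which encodes survivin, was at 20.4, 18.2 and 18.6 with vehicle and at 26.4, 27.8 and 26.05 with DOX. Its log2 fold change was 0.46 ± 0.11 (adjusted p = 0.269 by limma), but 0.037 on the deposited TPM and 0.35 after GC and length correction.

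In the death receptor branch, 1 of 8 genes in each direction had an unadjusted p under 0.05, with a median of 0.066. CFLAR, which encodes the caspase 8 inhibitor FLIP, was at 15.5, 16.9 and 17.6 scaled TPM with vehicle and at 11.03, 12.01 and 13.4 with DOX. Its log2 fold change was -0.43 ± 0.12 (adjusted p = 0.281 by limma), and -0.35 after GC and length correction. TNFRSF1A, a receptor for TNF, was at 53.0 to 68.2 and 59.7 to 88.05. Among 4 outer membrane partners, 0 passed an unadjusted p of 0.05 and the median was 0.11. VDAC1, the outer membrane channel, was at 58.4 to 63.2 with vehicle and 68.9 to 74.96 with DOX. Its log2 fold change was 0.21 ± 0.11 (adjusted p = 0.360 by limma), but -0.23 on the deposited TPM and 0.10 after GC and length correction. Among 4 enzymes of MCL1 turnover, 0 passed and the median was -0.068. HUWE1, a ubiquitin ligase of MCL1, was at 31.4 to 33.1 and 30.9 to 34.1. USP9X, which removes ubiquitin from MCL1, differed by -0.28 ± 0.14 on the log2 scale (adjusted p = 0.338 by limma). After GC and length correction the difference of USP9X was -0.051.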

How the data were processed

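RNA-seq from the DU-145/tet-XISTshRNA line was analyzed in 3 vehicle and 3 DOX samples, grouped by the treatment label. Per the labels, total RNA was isolated with an RNeasy kit (the paper's methods name Trizol) and stranded mRNA libraries were prepared. The authors used STAR with GRCh38 for alignment, and the values they deposited are TPM for each gene symbol. Which STAR version, counting program and strand option were used is not given in the sources used here. The authors also deposited DESeq2 output, of which only the signal column was used, the authors' mean of normalized counts across the 6 samples, to recover reads. Its fold changes and p-values were not used.

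TPM was divided by median-of-ratios size factors. Genes with a mean of at least 1 were tested by limma 3.58.1 (R 4.3.3) with a variance trend on log2(scaled TPM + 1), without a block, since the study's methods state no design for their comparison, and were adjusted by Benjamini-Hochberg. The members and lists were chosen with earlier results of these data known. A further marker list is not reported here. All members were described, and of each further list the gene of lowest p and that of highest level. Recovered reads were whole within 0.05 for 95.6% to 99.9% of low values (10% by chance); lengths that differ between samples limit the rest. The limma and voom fits, each with and without the block, and the recovery of reads were tested on simulated data, and the other steps were not.

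Same-numbered samples deviated together (r = 0.56, 0.26 and 0.19), and vehicle replicate 2 deviated with DOX replicate 3 as well (r = 0.22), so the pairing is not clear-cut. Blocked fits are given where they change a call. What a number marks is absent from the labels, so the pairing rests on these correlations. Once GC content and length had been corrected, they were 0.18, 0.020 and 0.14 for same-numbered samples. They were then 0.0997 for vehicle replicate 2 with DOX replicate 3 and 0.0958 for vehicle replicate 1 with DOX replicate 2. By this measure DOX replicate 2 was nearer to vehicle replicate 1 than to the vehicle sample of its own number. GC content, length and positions came from GENCODE 44 on GRCh38. Alternatives were the deposited TPM, upper-quartile scaling, no minimum, a pseudocount of 0.1, each sample left out, the block, GC and length correction by splines, and voom on recovered reads. Python 3.11.15 was used for tables and exact tests.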

Additional observations from a re-analysis of the deposited data

How the results depend on the processing

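Over the 9 tested members and 16 alternatives each, 130 log2 fold changes kept their direction and their side of the thresholds, 3 newly passed them and 11 changed sign. Genes called numbered 0 of 11630 in the comparison as reported, 351 on the deposited TPM, 2232 on the deposited TPM with the replicate block, 1 by voom, 421 by voom with the block, and 0 to 14 when 1 sample was left out, 14 without vehicle replicate 1 and 1 without DOX replicate 1. Members called numbered 2 (MCL1 at -0.80 and BCL2L11 at -0.74) on the deposited TPM with the block and 1 (BAK1 at 0.61) by voom with the block, and 0 under the other 14 alternatives. Other apoptosis genes called numbered 7 and 1 in the same fits: APAF1, BIRC3, BIRC6, BNIP3L, CFLAR, USP9X and XIAP, and BAD. The block changed no other call. The deposited TPM, with or without the block, turned the log2 fold change of BAX to -0.15, of BCL2L1 to -0.17, of BID to -0.12 and of BIK to -0.082, where the median of all genes was -0.35. GC and length correction, with or without the block, gave -0.031 for BAX. Leaving out 1 sample gave -0.34 to 0.019 for PMAIP1 (above 0 without vehicle replicate 2) and -0.020 to 0.36 for the log2 ratio of PMAIP1 to MCL1 (below 0 without vehicle replicate 3). The cause of these changes was not tested. The 3 ratios had p = 0.25 to 0.75 by an exact sign-flip permutation test over the replicate pairs, 0.25 being the smallest possible. The depth of vehicle replicate 3 limits BCL2, BIK and BAK1 most, at 0, 14 and 31 reads.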
